A study of Mus musculus with 5 samples.

Results

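Peaks of Runx3 and of the histone mark H3K4me1 were examined at 8 genes of IL-2 and IL-15 receptor signalling in natural killer cells (NKC) activated with IL-2. The genes were Il2ra, Il2rb, Il15ra, Il15, Jak1, Jak3, Stat5a and Stat5b, 8 of the 22350 protein-coding genes on chromosomes with peaks. They were chosen by name for their place in the pathway and not by a measured value, although earlier results of these data were known. A peak was counted for a gene when it overlapped the gene or the 20 kb on either side of it. By this rule 15 of the 11676 Runx3 peaks and 73 of the 34204 H3K4me1 peaks belonged to the 8 genes. NKC from spleens of individual wild-type ICR mice were enriched by removal of the other cells and, by the methods, sorted for DX5, then kept 7 days in 1000 units/ml of human recombinant IL-2, after which the labels give them as NKp46+. Their chromatin gave 2 libraries with antibody to Runx3, 1 with antibody to H3K4me1 and 2 with non-immune serum (NIS). The deposited lists hold 1 set of peaks per antibody, called on joined reads against NIS, with a start and an end for each peak and nothing on its height. All cells shared this 1 condition, so there is no comparison of groups, no replicate error and no test in what follows, and sequencing depth cannot be read from these lists.

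IL-2 and IL-15 share a signalling receptor. The beta chain (Il2rb) and the common gamma chain (Il2rg) carry the signal for both cytokines, while the alpha chains Il2ra and Il15ra raise affinity for one cytokine each, and IL-15 is largely presented to NKC by Il15ra on neighbouring cells. The beta chain is associated with the kinase Jak1 and the gamma chain with Jak3, which phosphorylate Stat5a and Stat5b, transcription factors that bind the palindrome TTCNNNGAA. NKC depend on IL-15 for survival, and high doses of IL-2 act on them through the same beta and gamma chains. Runx3 is a transcription factor of cytotoxic lymphocytes, and H3K4me1, methylation of histone H3 at lysine 4, is found at enhancers and around active promoters.

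The sequence under the Runx3 peaks is shown first, since RUNX motifs are the letters that Runx3 is known to bind. Each line holds 120 bases of the mm9 genome in the direction of the gene, taken clear of exons. Capitals mark the RUNX motif TGYGGY or its reverse complement, and in the line named STAT the motif TTCNNNGAA. The 9 peaks shown were chosen after their values were seen, as examples at a start site, in an intron and upstream of a gene, and each RUNX line holds the RUNX motif nearest the centre of its peak.
Il2ra, first intronic peak, chr2:11575133-11575252, plus strand: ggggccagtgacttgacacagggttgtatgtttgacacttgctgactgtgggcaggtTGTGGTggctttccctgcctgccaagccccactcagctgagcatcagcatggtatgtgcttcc
Il2ra, second intronic peak, chr2:11577019-11577138, plus strand: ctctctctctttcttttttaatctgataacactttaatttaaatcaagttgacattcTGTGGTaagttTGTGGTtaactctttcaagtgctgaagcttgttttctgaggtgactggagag
Il2ra, second intronic peak, STAT, chr2:11576924-11577043, plus strand: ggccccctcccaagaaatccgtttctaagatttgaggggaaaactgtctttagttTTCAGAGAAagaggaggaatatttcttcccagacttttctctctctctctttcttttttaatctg
Il2rb, promoter peak, chr15:78325590-78325709, minus strand: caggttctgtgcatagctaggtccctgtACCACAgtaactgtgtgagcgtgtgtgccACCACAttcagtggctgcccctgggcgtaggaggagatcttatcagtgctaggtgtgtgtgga
Il2rb, intronic peak, chr15:78323952-78324071, minus strand: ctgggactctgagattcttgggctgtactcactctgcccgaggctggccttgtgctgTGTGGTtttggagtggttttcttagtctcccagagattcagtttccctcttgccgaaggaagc
Il2rb, widest upstream peak, chr15:78340964-78341083, minus strand: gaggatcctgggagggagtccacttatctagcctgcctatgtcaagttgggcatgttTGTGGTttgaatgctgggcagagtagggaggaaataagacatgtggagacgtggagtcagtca
Jak1, intronic peak inside H3K4me1, chr4:100872433-100872552, minus strand: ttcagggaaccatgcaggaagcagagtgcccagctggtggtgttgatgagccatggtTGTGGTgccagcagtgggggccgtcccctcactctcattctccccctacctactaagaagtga
Jak1, peak at the gene start, chr4:100937367-100937486, minus strand: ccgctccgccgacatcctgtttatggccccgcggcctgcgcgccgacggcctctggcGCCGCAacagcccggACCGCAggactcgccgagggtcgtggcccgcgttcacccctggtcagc
Jak3, upstream peak, chr8:74189500-74189619, plus strand: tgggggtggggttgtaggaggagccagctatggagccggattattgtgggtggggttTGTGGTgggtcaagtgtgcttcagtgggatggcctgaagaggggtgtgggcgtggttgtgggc
Stat5b, intronic peak, chr11:100665921-100666040, minus strand: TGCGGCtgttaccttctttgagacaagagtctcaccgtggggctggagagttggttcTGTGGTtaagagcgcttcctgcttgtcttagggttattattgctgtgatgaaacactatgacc

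The second Il2ra peak held a pair of TGTGGT motifs 5 bp apart, 22 and 33 bp downstream of the peak centre. The Il2rb promoter peak also held a pair, read as ACCACA on the strand of the gene and 23 bp apart. In the peak at the Jak1 start the pair was GCCGCA and ACCGCA, the reverse complements of TGCGGC and TGCGGT. The CG-containing forms TGCGGT and TGCGGC made up 4 of the 6 RUNX motifs of that peak. In all 15 peaks together there were 44 RUNX motifs, of which 24 were TGTGGT, 14 TGTGGC, 2 TGCGGT and 4 TGCGGC.

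Il2rb, Jak1, Il2ra and Jak3 had Runx3 peaks that overlapped H3K4me1, whereas Il15 had neither kind of peak. The number of Runx3 peaks was 5 at Il2rb, 4 at Jak1, 2 at Il2ra, 2 at Jak3, 1 at Il15ra, 1 at Stat5b and 0 at Il15 and Stat5a. The order for H3K4me1 was different. Jak1 had 28 H3K4me1 peaks, Il2rb 18, Stat5b 11, Il2ra 8, Jak3 7 and Stat5a 6, and Il15ra and Il15 had 0. The lists give no spread for a count, so it cannot be said which neighbours in these orders differ. As shown in the map of the 8 loci, a Runx3 peak lay at the gene start in Il2rb and Jak1 beside others farther away, those of Il2ra and Stat5b lay inside the gene, and those of Jak3 and Il15ra lay outside it.

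**Figure D1:**
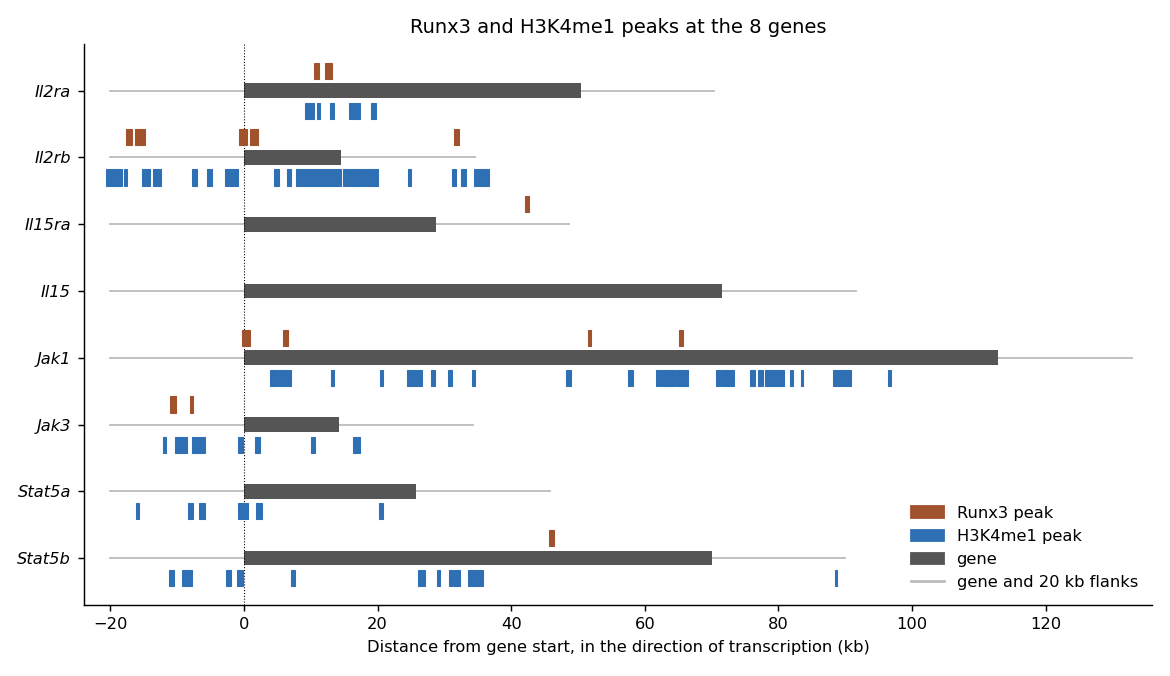
Positions of Runx3 peaks (brown) and H3K4me1 peaks (blue) at the 8 genes, against distance from the gene start in kb in the direction of transcription, with the gene as a grey bar and its 20 kb flanks as a line. Il2rb has 5 Runx3 and 18 H3K4me1 peaks, Jak1 has 4 and 28 centred in the gene, and Il15 has none.

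A Runx3 peak was present at 6 of the 8 genes, and 41.1% of all protein-coding genes had one by the same rule. H3K4me1 peaks were present at 6 of 8, against 51.1% of all genes. Runx3 peaks that overlapped an H3K4me1 peak by at least 1 bp were found at 4 of 8 (Il2ra, Il2rb, Jak1 and Jak3), against 20.5%. Only Stat5a had H3K4me1 without Runx3, a state of 17.3% of all genes, only Il15ra had Runx3 without H3K4me1, a state of 7.29%, and only Il15 had neither, like 41.6% of genes. With at least 50% of the Runx3 peak required to lie in H3K4me1, 1 of 8 (Jak1) had such a peak. That is near the 15.0% of all genes. With 8 genes each share moves by a large step for every gene, and these counts are a description beside the background. The median of the 8 genes was 1.5 Runx3 peaks and 7.5 H3K4me1 peaks, where the median of all genes was 0 and 1.00. The windows of the 8 genes were also longer, with a median of 79550 bp against 55428 bp for all genes. Per 100 kb the medians were 1.83 Runx3 and 9.56 H3K4me1 peaks for the 8 genes and 0 and 0.578 for all genes.

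**Figure D2:**
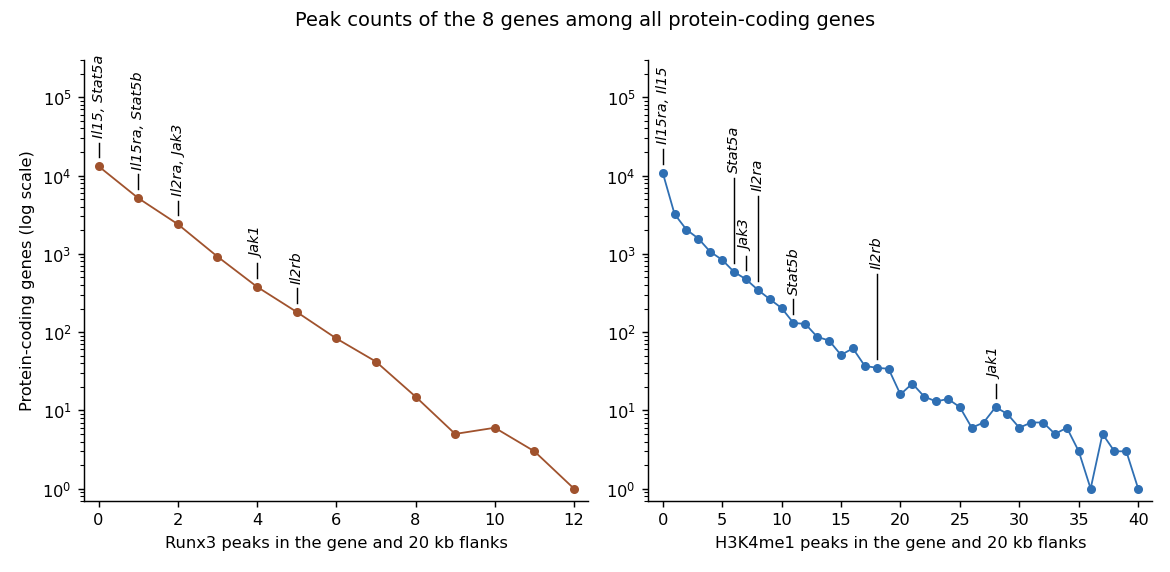
Number of protein-coding genes (log scale) with each count of Runx3 peaks (left, brown) or H3K4me1 peaks (right, blue) in the gene and its 20 kb flanks, with the counts of the 8 genes marked and genes beyond the end of each axis left out. Of the 8 genes, Il2rb has the most Runx3 peaks with 5 and Jak1 the most H3K4me1 peaks with 28, while Il15 lies at 0 in both panels.

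Il2rb, on chr15:78310983-78325496 on the minus strand, encodes the shared signalling chain and was the most densely marked of the 8 genes. Its 5 Runx3 peaks gave 9.17 per 100 kb, a density reached by 0.434% of protein-coding genes, and H3K4me1 peaks covered 43.1% of the 54514 bp window, a share reached by 0.0582%. One Runx3 peak sat on the start site, chr15:78325088-78326167, with its centre 132 bp upstream. A second, chr15:78323447-78324537, was centred in an intron 1504 bp downstream of the gene start and 194 bp from the second annotated start site of Il2rb. Neither of these touched an H3K4me1 peak. The closest H3K4me1 peak upstream of the promoter peak began 220 bp away and the closest downstream one 4102 bp away, so that the promoter lay in a gap of the mark. The upstream pair of Runx3 peaks, chr15:78340386-78341782 and chr15:78342237-78343107, was centred 15588 and 17176 bp before the gene, and both overlapped H3K4me1, by 317 and 152 bp. The former was the widest of the 15 at 1397 bp, a width reached by 2.06% of all Runx3 peaks. The fifth, chr15:78293298-78294081, lay within the neighbouring gene Tmprss6, and 379 bp of it were in H3K4me1.

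H3K4me1 lay on all sides of Il2rb. Of its 18 peaks, 7 were centred upstream, 4 in the gene and 7 downstream. Their full widths came to 8873, 8167 and 9304 bp respectively, including bases beyond the window, whereas the cover above counts the 23504 bp inside it. The widest single peak, 4416 bp, lay inside the gene with its centre in an intron. It was picked as the widest of the 73 H3K4me1 peaks of the 8 genes, and 0.114% of all H3K4me1 peaks were as wide. When peaks closer than 1 kb were joined, the widest block ran from 17460 to 32830 bp upstream and joined 8 peaks over 15371 bp. Most of it lay beyond the 20 kb flank, and it covered the start site of the neighbouring gene C1qtnf6. It met 4 Runx3 peaks, of which only chr15:78342237-78343107 was counted for Il2rb. The start sites of C1qtnf6 and Tmprss6 were the nearest to 1 Runx3 peak each and to several of the H3K4me1 peaks. Such peaks may be assigned to Il2rb or to that neighbour. With each peak given to the nearest TSS, Il2rb had 3 Runx3 and 9 H3K4me1 peaks. The density and cover given above count every peak in the window, whichever gene it is nearest to.

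**Figure D3:**
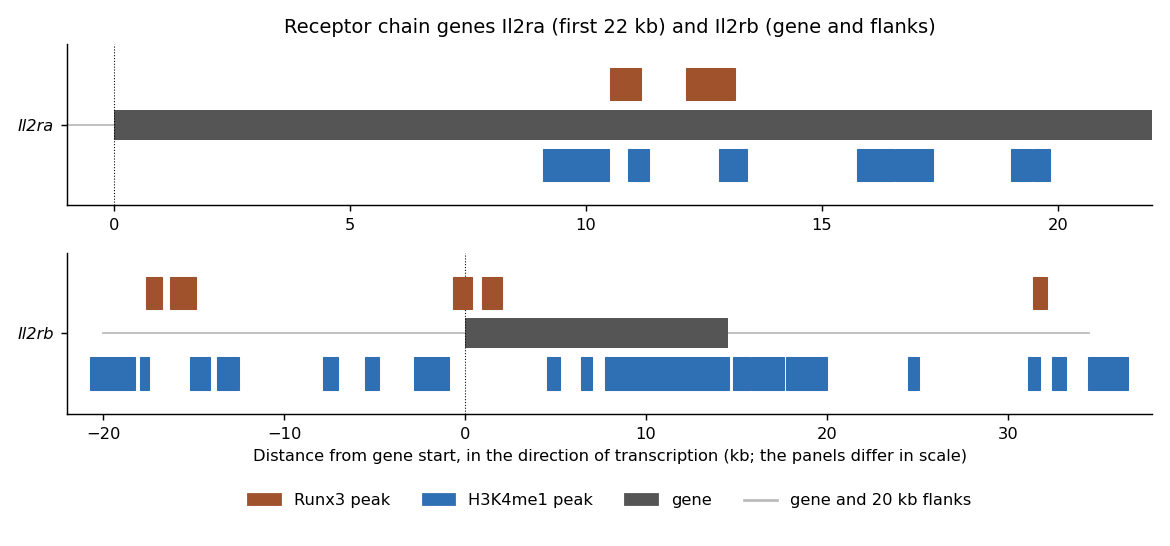
Runx3 peaks (brown) and H3K4me1 peaks (blue) at Il2ra and Il2rb on an enlarged scale, against distance from the gene start in kb, the panels differing in scale. At Il2ra both Runx3 peaks and all 8 H3K4me1 peaks fall in 1 intronic stretch, and at Il2rb the Runx3 peak at the start lies between H3K4me1 peaks.

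Il2ra, on chr2:11564419-11614818 on the plus strand, encodes the alpha chain that gives the IL-2 receptor its high affinity. Its Runx3 peaks were both intronic, chr2:11574930-11575578 and chr2:11576535-11577578, centred 10835 and 12638 bp downstream of the gene start. Both were partly inside H3K4me1, by 264 bp or 40.7% of the first and 337 bp or 32.3% of the second, but the centre of neither was. All 8 H3K4me1 peaks of Il2ra were in introns as well, between 9082 bp downstream of the start and the peak that ended at position 11584247. They were short, from 350 to 808 bp, and covered 5.33% of the window. No peak of either kind was within 1 kb of an Il2ra start site. In 46 genes the counts were the same as those of Il2ra (2 Runx3, 8 H3K4me1 and 2 overlapping), and the 3 closest to it in window length were Ppp2r1b, Snrk and Lpin1.

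The second Il2ra peak was the only one of the 15 with more than 1 STAT motif. It had 2 matches, centred 204.5 and 73.5 bp upstream of the peak centre, the latter printed above. At least 2 were found in 2.89% of all Runx3 peaks. This peak was 1044 bp wide, against a median of 704 bp for all Runx3 peaks, and the part of width was not tested. The nearest RUNX and STAT motifs in it were 88 bp apart. It held an AP-1 motif but no ETS motif. The first peak had no STAT motif, and its 3 ETS motifs included one 52 bp from a RUNX motif.

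Il15ra and Il15, the receptor chain and the cytokine that are presented together, had almost no peaks. Il15ra, on chr2:11626914-11655613 on the plus strand, lies 12095 bp from Il2ra. The windows of these neighbours shared 27905 bp, in which there was no peak of either kind. The single Runx3 peak counted for Il15ra, chr2:11668972-11669547, was 13359 bp past the end of the gene and inside Fbxo18, with the Fbxo18 start site 1596 bp from its centre. It had 2 AP-1 motifs and 1 T-box motif, no ETS motif and 1 RUNX motif, 258 bp from its centre. At Il15, on chr8:84855536-84927121 on the minus strand, the closest Runx3 peak was 379003 bp from the gene start, a distance met or exceeded by 16% of genes, and the closest H3K4me1 peak 460831 bp away. Of the 40-base stretches in the Il15 window 90.3% occur once in the genome, the lowest share of the 8 windows, and around its start site 98.5% do. The part of unique alignment in these counts was not tested. These cells were NKC alone, and the cells that present IL-15 were not measured.

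Jak1, the kinase of the beta chain, on chr4:100824972-100937887 on the minus strand, had all of its 4 Runx3 and 28 H3K4me1 peaks centred inside the gene. As many H3K4me1 peaks were counted at 0.398% of genes, although the Jak1 window of 152916 bp is the longest of the 8. Per 100 kb it had 18.3 H3K4me1 and 2.62 Runx3 peaks, densities reached by 2.27% and 12.6% of genes. A Runx3 peak of 1236 bp, chr4:100936920-100938155, covered the gene start. Its GC content was 65.4%, against a median of 51.3% for the 15 peaks and 49.6% for all Runx3 peaks, and it had no H3K4me1 overlap, the nearest such peak being 2869 bp downstream. The intronic peaks chr4:100931343-100932062 and chr4:100872100-100872835 were 80.1% and 95.2% covered by H3K4me1. They were the only 2 of the 15 with their centre inside an H3K4me1 peak, where 28.2% of all Runx3 peaks had theirs. The last intronic peak, chr4:100885947-100886432, did not meet the mark. The widest joined block of H3K4me1 at Jak1, of 5 peaks over 6418 bp and between 75769 and 82186 bp downstream of the start, had no Runx3 peak.

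Jak3, the kinase of the gamma chain, on chr8:74200195-74214474 on the plus strand, had its Runx3 peaks upstream only. They were chr8:74189058-74190039 and chr8:74192052-74192503, centred 10646 and 7918 bp before the gene start, and both lay within the neighbouring gene Unc13a, whose start sites were nearer to them than those of Jak3. Each touched H3K4me1 at its edge, by 99 and 89 bp. The former lay at the far edge of a joined block of H3K4me1 of 4494 bp that ended 5761 bp from the Jak3 start, and the latter between the 2 peaks of that block. The former peak had 6 RUNX motifs, and the latter, at 452 bp the narrowest of the 15, had none and 1 ETS motif. Of the 7 H3K4me1 peaks of Jak3, 4 were centred upstream, 2 in the gene and 1 downstream in B3gnt3. The nearest of the upstream ones was 78 bp from the Jak3 start site, centred in Gm9933 and also within 1 kb of the Gm9933 start. The others upstream were centred in Unc13a.

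Stat5a and Stat5b, the transcription factors at the end of the pathway, start 8626 bp apart on opposite strands of chromosome 11, at 100720665-100746483 and 100642045-100712038. Their windows shared 31374 bp with 5 H3K4me1 peaks, which were counted for both genes, and no Runx3 peak. H3K4me1 lay at both starts. The peak chr11:100719823-100721299 covered that of Stat5a, and chr11:100712255-100713062 began 217 bp upstream of that of Stat5b. Runx3 was found at neither start. The Stat5b peak of Runx3, chr11:100665609-100666376, was centred in an intron 46046 bp downstream of the start, with 157 bp of it in exons, and the nearest H3K4me1 peak was 9926 bp away. It had 5 RUNX motifs, and 88.6% of its 40-base stretches occur once in the genome, the lowest share of the 15 peaks. Of the 11 H3K4me1 peaks of Stat5b, 1 was downstream of the gene, in Hcrt. For Stat5a the nearest Runx3 peak to its start was the same Stat5b peak, 54289 bp away.

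A Runx3 peak lay within 1 kb of an annotated start site (TSS) at 2 of the 8 genes, Il2rb and Jak1, and at 14.1% of all genes. H3K4me1 lay within 1 kb of a TSS at 5 of the 8, Il2rb, Jak1, Jak3, Stat5a and Stat5b, and at 18.0% of all genes. For Jak1 that TSS was an internal one, and from the gene start the closest H3K4me1 peak was 3837 bp away. No gene of the 8 had an H3K4me1 peak over a Runx3 peak at its start. Of all 15 Runx3 peaks, 9 overlapped H3K4me1, where 48.4% of the 11676 Runx3 peaks did. With at least 50% of the peak in H3K4me1 the count was 2 of 15, against 31.6%, so the direction turned with the overlap required.

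The motif content of the 15 Runx3 peaks is given beside that of the whole list, and 1 peak of the 15 is worth 6.67 percentage points. A RUNX motif (TGYGGY) was present in 13 of 15, against 96.0% of all Runx3 peaks, and an ETS motif (MGGAAR) in 13 of 15, against 91.4%. The median was 3 RUNX motifs per peak, as in all peaks, and 2 ETS motifs, against 3 in all peaks. The peaks without a RUNX motif were the one in Tmprss6, counted for Il2rb, and the nearer of the Jak3 pair. AP-1 (TGASTCA) was found in 3 of 15, against 26.2%, in 1 peak each of Il2ra, Il2rb and Il15ra. STAT (TTCNNNGAA) was found in 3 of 15, against 21.6%, namely in the second Il2ra peak and in the Jak1 peaks at the start and inside H3K4me1. T-box (AGGTGTGA) was found in 2 of 15, against 5.51%, in 1 peak of Il2rb and that of Il15ra. Motifs were searched on both strands, and neighbouring matches may overlap. RUNX and ETS motifs lay up to 50 bp apart in 8 of 15, against 59.2%, and pairs of RUNX motifs in 8 of 15, against 45.6%. A match is a stretch of letters and does not show that the factor was bound.

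**Figure D4:**
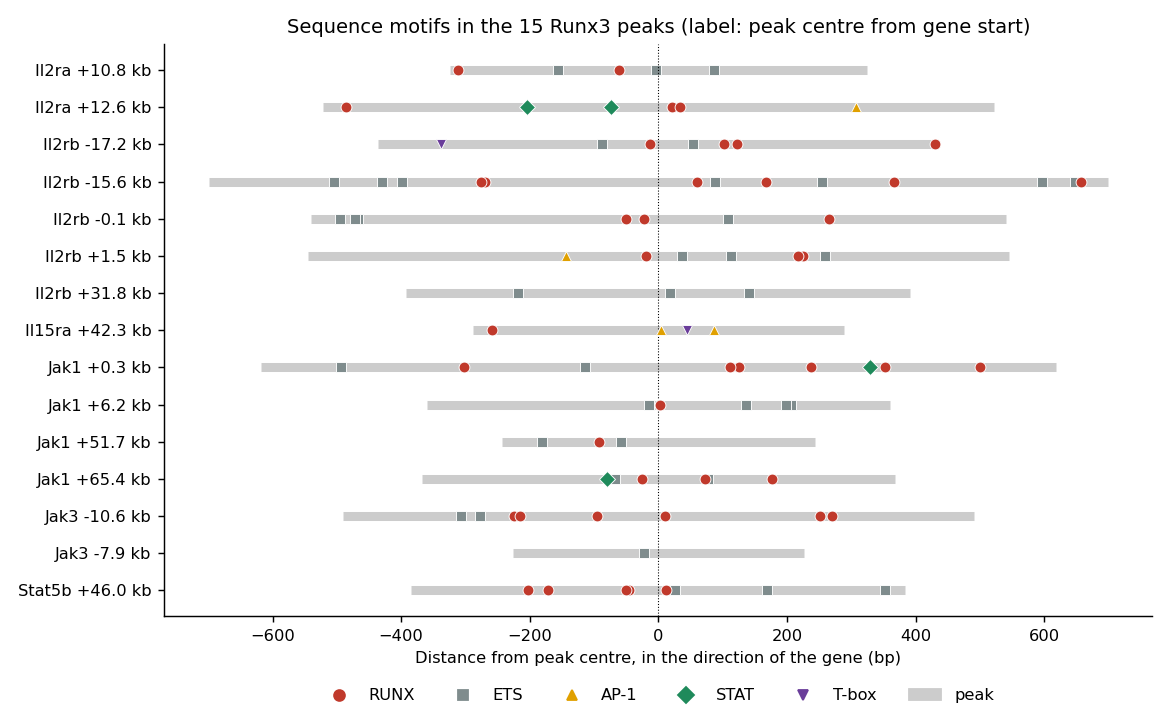
Motif matches in the 15 Runx3 peaks, against distance from the peak centre in bp in the direction of the gene, with the peak as a grey bar and each row named by gene and distance of the peak centre from the gene start. RUNX motifs (circles) are in 13 of the 15 peaks and STAT motifs (diamonds) in 3, with 2 in the Il2ra peak farther from the gene start.

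A list of 28 other genes of the pathway was counted in the same way. Runx3 peaks were at 22 of 28, against 41.1% of all genes, and H3K4me1 peaks at 23 of 28, against 51.1%. Runx3 overlapped H3K4me1 at 12 of 28, against 20.5%, and the medians were 1.5 Runx3 and 8.5 H3K4me1 peaks per gene. By role, a Runx3 peak was counted at 3 of 6 other receptor and ligand genes, 8 of 10 kinases and adaptors, 5 of 6 feedback genes and 6 of 6 target genes, each to be read beside the same 41.1%. By count, most Runx3 peaks were at Bcl2, a survival gene, with 6 Runx3 and 47 H3K4me1 peaks, and at Il21r, a receptor chain that pairs with the common gamma chain, with 6 and 19. Next came Il4ra, likewise a partner of the gamma chain, with 5 and 21, the survival gene Mcl1 with 5 and 11, and Socs1, an inhibitor of Jak kinases, with 5 and 10. Il21r and Il4ra are both on chromosome 7, and sharing of peaks between windows was not examined for these 28 genes. Windows differ in length. That of Bcl2 is 216097 bp, so its Runx3 peaks came to 2.78 per 100 kb, against 12.0 at Socs1 and 11.2 at Mcl1. No Runx3 peak was counted at Il2rg, Il7r, Il9r, Gab2, Stam or Socs2.

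The common gamma chain gene Il2rg, which is on chromosome X, had no peak of either kind, although the chain is part of both receptors. On chromosome X 7.30% of genes had a Runx3 peak and 5.26% an H3K4me1 peak, against 42.6% and 53.1% on the autosomes, and the part of this difference in the Il2rg count was not tested. As a check of the cell type, all 5 NKC markers examined (Ncr1, Klrb1c, Klrd1, Eomes and Tbx21) had Runx3 and H3K4me1 peaks. Runx3 peaks were also at 3 of 4 T cell markers, 1 of 3 B cell markers and 2 of 3 myeloid markers, against 41.1% of all genes. H3K4me1 peaks were at 3 of 4 T cell markers, 2 of 3 B cell markers and 2 of 3 myeloid markers, against 51.1%. A peak of either kind at a gene therefore does not tell its cell type.

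**Figure D5:**
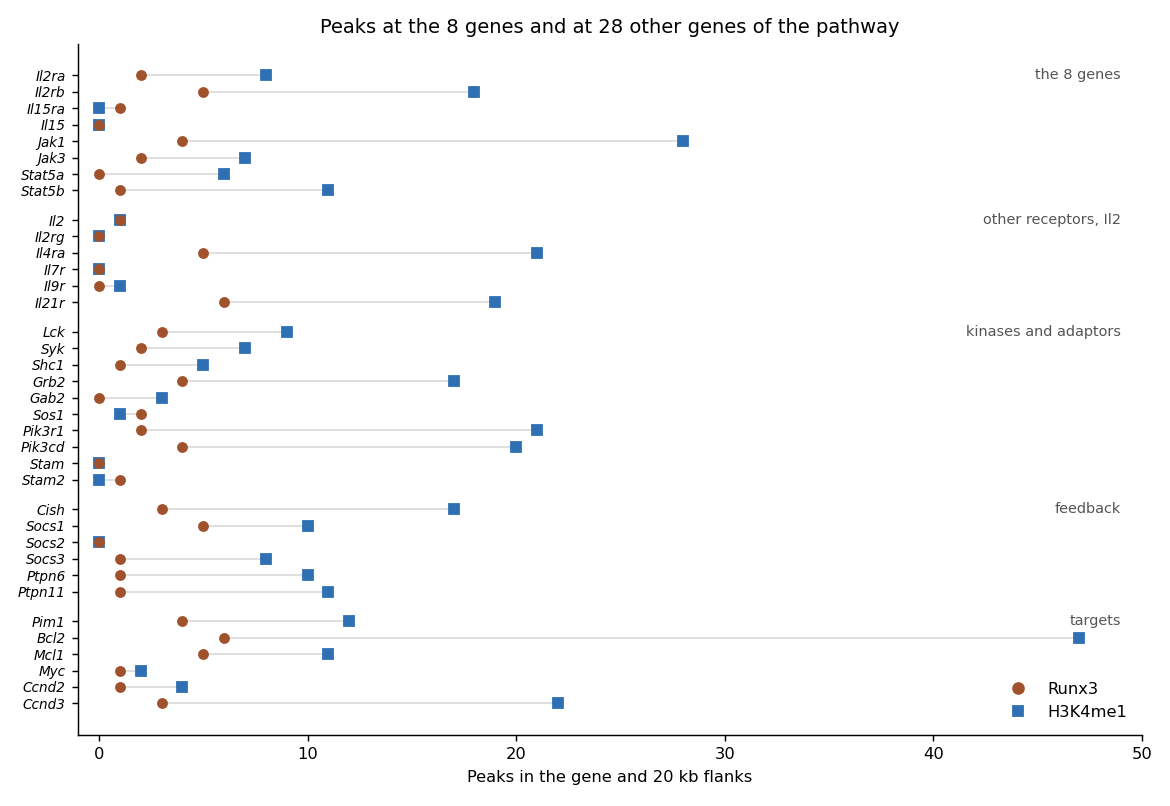
Runx3 peaks (circles) and H3K4me1 peaks (squares) in the gene and its 20 kb flanks at the 8 genes and at 28 other genes of the pathway, in groups by role. All 6 target genes have a Runx3 peak, and Bcl2, whose window is 216097 bp long, has the most H3K4me1 peaks with 47.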

How the data were processed

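ChIP-seq of IL-2-activated NKC gave 2 peak lists, whose deposited columns are peak coordinates in bp. The authors used ELAND to align 40 bp reads to mm9, took those with a unique position, joined replicates and ran MACS with NIS as control after scaling to the smaller dataset. Joining hides the spread between libraries, and with no scores a stricter threshold could not be tried. No column of values was left unused.

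Starts were converted to count from 1. Genes and TSSs were those of GENCODE M1 and sequence that of the same build, on 19 autosomes and chromosome X. Pathway genes were found by symbol, 28 of 28, Syk under its other name Sykb by way of the RefSeq gene table. Overlap needed 1 bp. Uniqueness of sequence was the share of 40-base stretches found once in the genome, both strands counted. Alternatives were flanks of 5 and 50 kb, gene bodies alone, nearest TSS, stricter and looser overlap, wide peaks only, other TSS distances, a longer RUNX motif and the central 200 bp. The named genes were the 8 genes, the 5 other pathway genes with most Runx3 peaks and those with none, genes at the peaks, and the 3 genes most like Il2ra. Genes, lists and motifs were chosen with earlier results of these data known. In simulated data 300 of 300 windows were counted correctly and 1000 of 1000 planted motifs found. Calculations used python 3.11.15, numpy 2.4.6, numba 0.67.0, pysam 0.24.0, samtools 1.23.1 and matplotlib 3.10.9.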

Additional observations from a re-analysis of the deposited data

How the results depend on the processing

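The number of Runx3 peaks at the 8 genes followed the width of the flank, from 9 within 5 kb, and likewise 9 in gene bodies alone, to 23 within 50 kb. Runx3 peaks with H3K4me1 overlap numbered 4 within 5 kb, 4 in gene bodies alone, 14 within 50 kb, 5 when each peak went to the nearest TSS and 2 when H3K4me1 had to cover at least 50% of the peak, which 31.6% of all Runx3 peaks met. Genes with such a peak fell to 2 within 5 kb (13.1% of all genes) and 2 in gene bodies alone (9.96%). Under the cover rule they fell to 1 (15.0%), near the share of all genes. Joining H3K4me1 peaks closer than 1 kb left 45. By nearest TSS, or without peaks centred in another gene (chosen after seeing the data), Jak3 and Il15ra had 0 Runx3 peaks. Within 50 kb Il2rb had 11 and Stat5a 1. Genes with a Runx3 peak fell from 6 to 4 within 5 kb (28.8% of all genes) and in gene bodies alone (23.2%). They were also 4 by nearest TSS (26.2%) and without peaks centred in another gene (31.6%). The other counts for the 8 genes together stayed within 1.5 times, and of 144 values of single genes 44 moved further. No paired analysis was possible because the lists join the libraries, and for the same reason none could be left out. Depth is not in the lists, so a gene without a peak had none called, which does not show absence of binding.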
